A study of Mus musculus with 11 samples.

Results

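The aldo-keto reductases described here are 9 genes of a family of oxidoreductases, gathered around Akr1e1 because its signal was lower in kidney tubules of mice without Tamm-Horsfall protein. Akr1e1 was chosen by its knockout against wild-type difference on these arrays, so that difference is given as a description with no test. The other members, Akr1b3, Akr1b8, Akr1c12, Akr1c13, Akr1c14, Akr1c18, Akr1c21 and Akr7a5, were taken by family name. A member was measured where a probe set, a group of array oligonucleotides, was annotated with its symbol alone, and 7 of the 9 had one, out of 22180 genes measured in all. Akr1b3 had no such probe set here, and Akr1c13 was named only on a probe set that also names Akr1c12, so neither has a value.

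RNA came from the S3 segment, the straight end part of the kidney proximal tubule, of 129/SvEv mice. There were 6 wild-type arrays and 5 arrays with the genotype THP -/-, which lacks Tamm-Horsfall protein (uromodulin, encoded by Umod), a protein made mainly by the neighbouring thick ascending limb. Batch 1 held 5 wild-type and 3 knockout arrays, and batch 2 held 1 and 2. The labels used here give no age, sex or construction of the allele. They also do not say that each array is a separate mouse, so a p-value reflects only how far these arrays scatter. Every hybridisation started from 2 ng of RNA and gave a log2 signal for 41345 probe sets.

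Most aldo-keto reductases are cytosolic enzymes that use NADPH to reduce aldehydes and ketones to alcohols. Akr1e1 reduces anhydrofructose, a sugar released from glycogen. The Akr1b enzymes are aldose reductases and their relatives. The Akr1c enzymes act mostly on steroids and prostaglandins, and Akr7a5 reduces aflatoxin aldehyde and succinic semialdehyde. In the proximal tubule such enzymes are known for clearing reactive carbonyls and for steroid metabolism.

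Akr1e1 and the Akr1c genes lie side by side on mouse chromosome 13. Promoter windows of 250 bases before to 50 bases after the gene start, from RefSeq on GRCm38.p6, were found for 8 of the 9 members. They are shown for the member with the most negative and the member with the most positive genotype difference. Capitals mark a match to 1 of 4 short motifs searched on both strands: the antioxidant response element core TGACNNNGC, the nuclear receptor motif AGGTCA, the TonEBP core TGGAAA and the TATA box TATAAA.
Akr1e1, chr13:4609115-4609414, minus strand: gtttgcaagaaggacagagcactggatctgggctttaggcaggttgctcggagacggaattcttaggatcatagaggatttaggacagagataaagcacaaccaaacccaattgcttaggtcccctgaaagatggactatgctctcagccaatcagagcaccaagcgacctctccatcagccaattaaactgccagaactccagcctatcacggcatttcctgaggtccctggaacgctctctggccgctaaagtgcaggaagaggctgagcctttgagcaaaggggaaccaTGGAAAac
Akr1c18, chr13:4150597-4150896, minus strand: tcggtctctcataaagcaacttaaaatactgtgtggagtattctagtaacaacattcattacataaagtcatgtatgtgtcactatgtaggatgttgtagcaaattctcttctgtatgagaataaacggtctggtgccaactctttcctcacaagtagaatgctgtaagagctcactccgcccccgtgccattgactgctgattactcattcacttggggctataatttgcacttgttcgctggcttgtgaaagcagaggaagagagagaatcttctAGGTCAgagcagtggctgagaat
The Akr1e1 window held 1 match, the TonEBP core, from base 43 after the gene start. Of 32851 such windows, 21.4% also hold this motif. The Akr1c18 window held 1 match, the nuclear receptor motif, from base 28 after the gene start, a motif found in 16.3% of windows. Of the 8 windows, 5 held 1 match each and 3 held none, so no matches overlapped. The antioxidant response element core, present in 12.4% of all windows, was in 0 of the 8. The TATA box letters, present in 13.6%, were in that of Akr1b8, on the opposite strand and 159 bases before the gene start. A match describes letters only.

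The windows of Akr1c12 and Akr1c13 are shown because these genes are close copies, which bears on the probe set they share. Capitals mark bases that differ when both are aligned.
Akr1c12, chr13:4279350-4279649, minus strand: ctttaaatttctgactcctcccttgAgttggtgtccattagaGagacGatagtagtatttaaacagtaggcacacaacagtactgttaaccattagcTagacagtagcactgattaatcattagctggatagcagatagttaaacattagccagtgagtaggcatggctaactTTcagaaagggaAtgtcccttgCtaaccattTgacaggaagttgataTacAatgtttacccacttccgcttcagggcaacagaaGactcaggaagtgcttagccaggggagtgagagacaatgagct
Akr1c13, chr13:4190937-4191236, plus strand: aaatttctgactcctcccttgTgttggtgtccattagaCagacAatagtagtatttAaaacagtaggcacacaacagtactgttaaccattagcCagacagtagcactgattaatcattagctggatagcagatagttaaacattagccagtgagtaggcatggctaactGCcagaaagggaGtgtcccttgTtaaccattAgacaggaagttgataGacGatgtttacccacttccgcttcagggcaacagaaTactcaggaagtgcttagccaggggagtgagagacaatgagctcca
Of 296 aligned bases 284 were identical (95.9%), 12 differed, and Akr1c13 had 1 extra base. The Akr1e1 window aligned to those of the other 7 members at 52.5% to 57.6% identity. The other pairs of Akr1c windows aligned at 52.2% to 60.5% identity. Signals of Akr1c genes may be split between close copies, which would make the identity of an Akr1c signal less certain. The windows lie mostly before the gene start, outside the transcript that probes read, so this was not tested.

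Array medians lay between 3.85 and 4.01, and correlations between arrays over all probe sets between 0.901 and 0.955. Umod was at 5.27 to 6.74 on the wild-type arrays and at 3.68, 4.26, 4.67, 4.55 and 5.27 on knockout replicates 1 to 5, so the array labelled knockout replicate 5 read the same as wild-type replicates 2 and 5. Member, list and batch results are therefore also given without that array, a choice made after seeing the data for lists, batches and correlations. The sources used here do not say whether the Umod probe set lies in the deleted part. Of 8 measured S3 markers, 6 were above the array median on every array, but so were 7 of 8 markers of the earlier S1 and S2 segments and 6 of 8 of the thick ascending limb. The S3 marker mean was 6.86 to 8.16 in wild type and 7.60 to 8.84 in knockout, with 8 of 8 markers higher in knockout, and the S1 and S2 mean was 6.63 to 8.04 and 6.16 to 7.85, with 0 of 8 higher. The mean of the 7 thick ascending limb markers other than Umod was 5.28 to 6.01 in wild type and 5.63 to 7.47 in knockout, with 7 of 7 higher in knockout, and it was highest on knockout replicate 4, with the other knockout arrays at 6.20 or less. None of the 71 marker genes measured in 13 lists passed limma's test after Benjamini-Hochberg adjustment. An unadjusted p under 0.05 was found for 9 of the 71, the targeted gene Umod among them, against 6.16% of all probe sets. A lower signal from fewer cells of a type cannot be told apart from less RNA per cell in such bulk samples.

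Akr1e1 had lower signal on 4 of the 5 knockout arrays than on any wild-type array. Its log2 signal was 6.73, 6.79, 6.74, 6.31, 6.31 and 7.49 on wild-type replicates 1 to 6 and 4.97, 4.60, 5.24, 4.76 and 6.69 on knockout replicates 1 to 5. The array labelled knockout replicate 5 lay inside the wild-type range, so the groups overlapped, and it was also the highest knockout array for Umod. Wild-type replicate 6 was the highest wild-type array for both genes. It was the only wild-type array of batch 2, the batch of knockout replicate 5. Knockout replicate 5 read lower than it for Akr1e1 (6.69 against 7.49) and for Umod (5.27 against 6.74). The means were 6.73 ± 0.432 (SD, n = 6) and 5.25 ± 0.839 (SD, n = 5).

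With batch as a term, the Akr1e1 difference was -1.67 ± 0.30 (SE) on the log2 scale, with a 95% interval from -2.34 to -1.01, or 3.19-fold lower. It was the 5th most negative of 22180 genes. Because the gene was chosen by this contrast, the interval and rank are no test and can overstate the difference. Within batch 1 it was -1.64 and within batch 2, with 1 wild-type array, -1.77. Without knockout replicate 5 it was -1.87, and over every array left out in turn it ran from -1.87 to -1.46. With the thick ascending limb marker mean, Umod left out of it, as a covariate it was -1.37, and with the S3 marker mean, a setting chosen after seeing the data, -1.54. Fitted with batch, the S3 marker mean itself differed by 0.55 and the S1 and S2 marker mean by -0.54, the direction of Akr1e1. The S1 and S2 mean was not used as a covariate, so its relation to the Akr1e1 difference was not tested. Akr1e1 was above the array median on 11 of 11 arrays, at percentile 88.9 of all gene means.

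**Figure D1:**
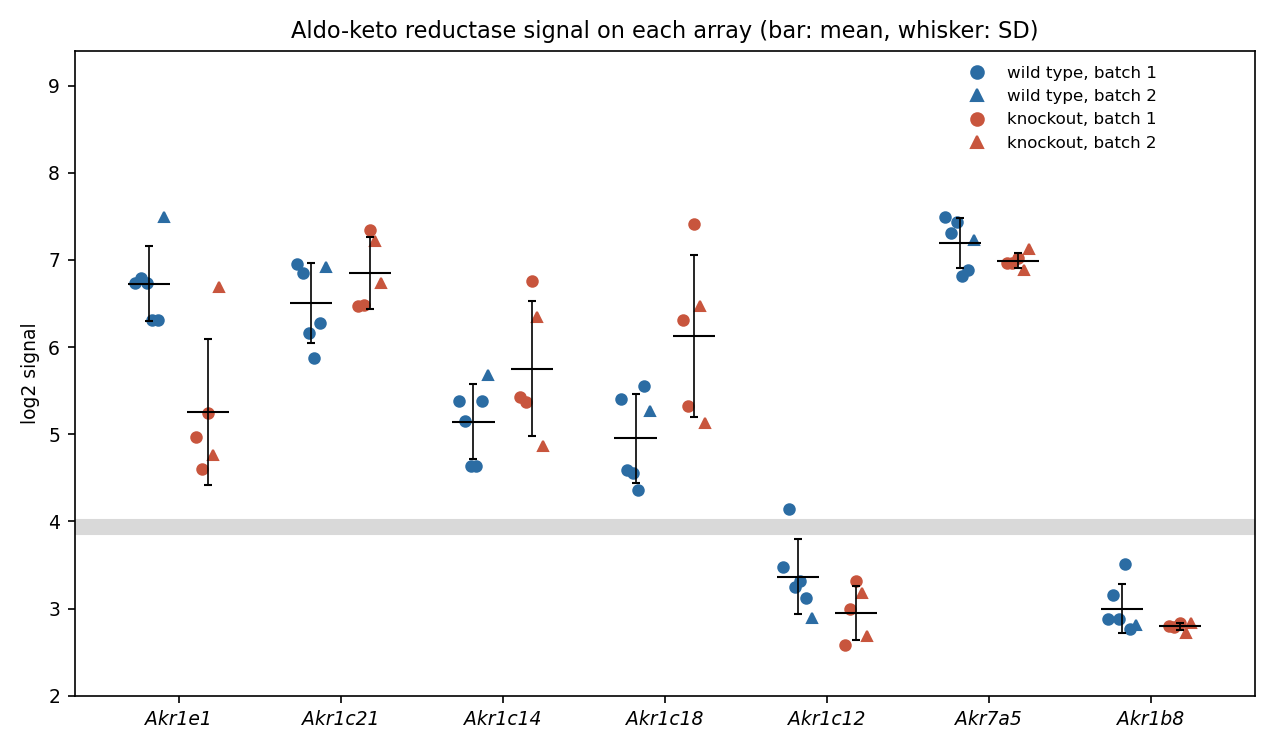
Log2 signal of each measured aldo-keto reductase on each of the 11 arrays, wild type in blue and knockout in red, circles for batch 1 and triangles for batch 2, with the mean (bar) and SD (whisker) of each group; the grey band spans the array medians. For Akr1e1, 4 knockout arrays sit between 4.60 and 5.24, below every wild-type array, and 1 sits at 6.69.

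None of the 6 other measured members passed limma's test with Benjamini-Hochberg adjustment over all probe sets, where their adjusted p ran from 0.758 to 0.882, and 0% of the 41345 probe sets passed. Umod, the targeted gene, did not pass either, at -1.52 ± 0.24 (SE, limma adjusted p = 0.281). A member that did not pass is therefore not shown to be unchanged. At an unadjusted p under 0.05 there was 1 of the 6, Akr1c18, against 6.16% of all probe sets. In all 7 members the wild-type and knockout arrays overlapped, while 0.597% of probe sets did not overlap. Of the 6, 3 were higher and 3 lower in knockout, with a median difference of 0.04, and the median with Akr1e1 included was -0.18, beside 0.002 over all probe sets. Without the array labelled knockout replicate 5, the differences were 1.40 for Akr1c18, 0.79 for Akr1c14, 0.33 for Akr1c21, -0.20 for Akr1b8, -0.24 for Akr7a5 and -0.34 for Akr1c12. In that fit 0 of the 6 passed limma's adjusted test, against 6 of all 22180 genes.

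Akr1c18, the hydroxysteroid dehydrogenase that inactivates progesterone, had the most positive difference of the members. Its log2 signal was 5.40, 4.59, 4.55, 4.36, 5.55 and 5.27 on wild-type replicates 1 to 6 and 6.31, 5.32, 7.41, 6.47 and 5.13 on knockout replicates 1 to 5. Knockout replicates 1, 3 and 4 lay above every wild-type array, while knockout replicates 2 and 5 lay inside the wild-type range. The fitted difference was 1.21 ± 0.42 (SE), with a 95% interval from 0.29 to 2.14 and a limma adjusted p of 0.758. It was 1.46 within batch 1 and 0.53 within batch 2, and 0.80 without knockout replicate 3. With the S3 marker mean as a covariate it was 0.63 ± 0.36, with a limma adjusted p of 0.985.

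Akr1c14, which interconverts hydroxy- and ketosteroids, was at 5.38, 5.15, 4.63, 4.64, 5.38 and 5.68 on the wild-type arrays and at 5.43, 5.37, 6.76, 6.35 and 4.86 on the knockout arrays. Knockout replicates 3 and 4 were again the highest of all arrays, and the other knockout arrays lay inside the wild-type range. The difference was 0.58 ± 0.36 (limma adjusted p = 0.84), with an interval from -0.20 to 1.37. It was 0.82 within batch 1, -0.07 within batch 2 and 0.22 without knockout replicate 3. With the S3 marker mean as a covariate the difference was 0.02.

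Akr1c21, a kidney-expressed hydroxysteroid dehydrogenase and the nearest neighbour of Akr1e1, was bright at percentile 93.9 of gene means. It was at 6.95, 6.85, 6.16, 5.88, 6.28 and 6.92 on the wild-type arrays and at 6.47, 6.48, 7.34, 7.22 and 6.73 on the knockout arrays. Only knockout replicates 3 and 4 exceeded the wild-type range. The difference was 0.26 ± 0.25 (limma adjusted p = 0.882), with an interval from -0.28 to 0.81, and with the S3 marker mean as a covariate it turned to -0.08.

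Akr7a5 was the brightest member, at percentile 96.1, and the one with the least spread among the bright ones. Its wild-type arrays read 7.49, 7.31, 7.44, 6.82, 6.88 and 7.23 and its knockout arrays 6.97, 6.96, 7.02, 6.88 and 7.12. The knockout arrays all lay within the wild-type range. The difference of -0.21 ± 0.15 (limma adjusted p = 0.856) had an interval from -0.54 to 0.12.

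Akr1c12 and Akr1b8, an aldose reductase relative that fibroblast growth factor induces in cultured cells, were dim. Akr1c12 ran from 2.89 to 4.14 in wild type (median 3.28) and from 2.58 to 3.31 in knockout, and was above the array median on 1 of 11 arrays. Akr1b8 ran from 2.76 to 3.51 in wild type (median 2.88) and from 2.72 to 2.83 in knockout, and was below the lower quartile on 9 of 11 arrays. A signal above background was not established for either, and folds are left out. The differences were -0.36 ± 0.22 for Akr1c12 and -0.18 ± 0.15 for Akr1b8, with limma adjusted p of 0.84 and 0.87.

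Whether the Akr1e1 difference is particular to it was not tested, because the gene was picked for this contrast.

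**Figure D2:**
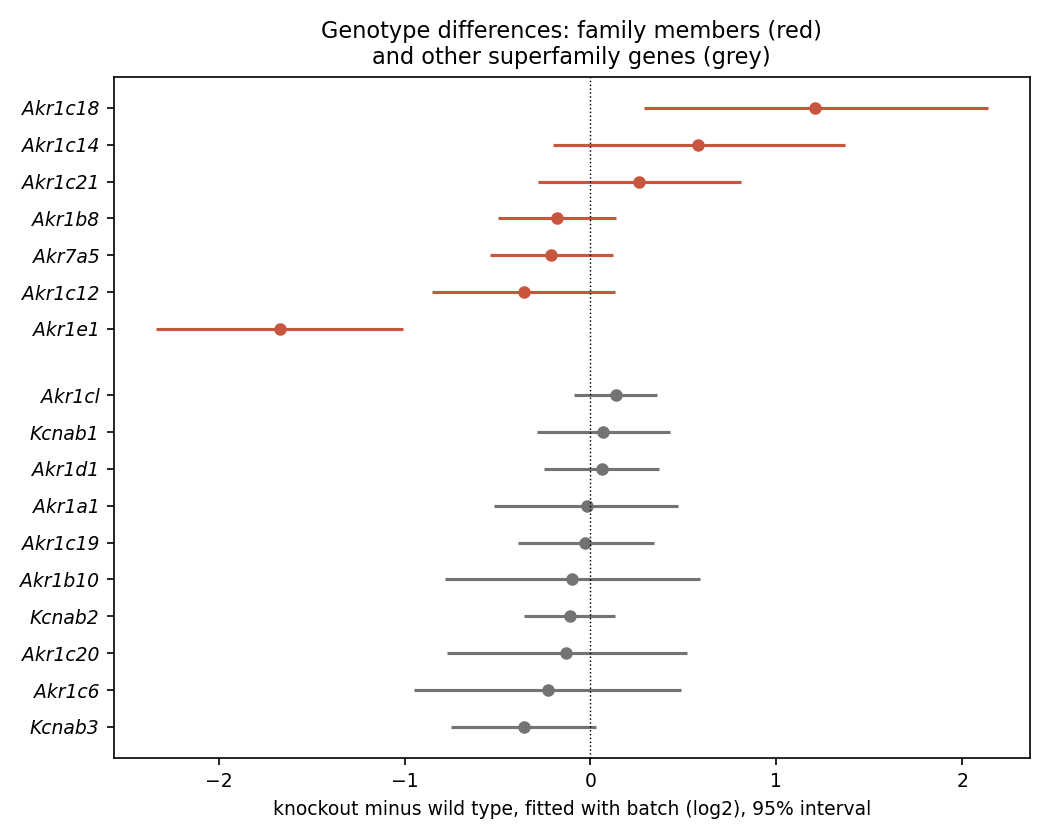
Fitted knockout minus wild-type difference (log2, batch as a term) with 95% interval for the 7 measured members in red and for 10 other genes of the superfamily in grey. Akr1e1 lies at -1.67 and Akr1c18 at 1.21, and the grey points lie between -0.36 and 0.14.

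The contrast between batches did not itself enter the choice of the members. It shares an unbalanced fit with the genotype difference that picked Akr1e1, so its Akr1e1 value and p are not independent of that choice. Batch 2 against batch 1, with genotype as a term, gave 0 of 7 members past limma's adjusted threshold, and 0% of all probe sets passed. Akr1e1 was the only member with an unadjusted p under 0.05, at 0.84 ± 0.34 higher in batch 2 (95% interval 0.10 to 1.58, limma adjusted p = 0.705), where 6.56% of probe sets had such a p. The other members ran from -0.25 for Akr1c12 to 0.33 for Akr1c21. Without the array labelled knockout replicate 5, which leaves 1 array of each genotype in batch 2, the Akr1e1 batch difference was 0.40 ± 0.27 (SE, limma adjusted p = 0.797), and 0 of the 7 members had an unadjusted p under 0.05. The other members then ran from -0.20 for Akr1c12 to 0.57 for Akr1c14. The genotype difference itself was compared between the batches by an interaction term, for which 0% of probe sets passed and the smallest limma adjusted p was 0.313. Of the 7 members, 0 had an unadjusted p under 0.05 there, against 4.43% of probe sets. For Akr1c18 the interaction was -0.93 ± 0.96 (SE), with a 95% interval from -3.07 to 1.22.

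After genotype and batch were removed, Akr1c14 varied with Akr1c18 and with Akr1c21 across the 11 arrays. All 28 pairs among the 7 members and the S3 marker mean were computed, and p-values are from two-sided permutation tests with 100000 resamples, with Benjamini-Hochberg adjustment over the pairs. The residuals were permuted as 11 free values although the fit left 8 degrees of freedom, so these p-values can be too small. Akr1c14 and Akr1c18 had Pearson r = 0.91 (permutation p = 0.00028, adjusted 0.00784) and Spearman rho = 0.91 (permutation p = 0.00026, adjusted 0.00728), r = 0.83 without the 2 arrays farthest from the median, and r = 0.90 without the array labelled knockout replicate 5. Akr1c14 and Akr1c21 had r = 0.80 (permutation p = 0.00364, adjusted 0.034) and rho = 0.85 (permutation p = 0.00174, adjusted 0.0157), r = 0.72 without the 2 farthest arrays, and r = 0.81 without knockout replicate 5. The pair of Akr1c18 and Akr1c21 missed the threshold after adjustment, with r = 0.68 (permutation p = 0.0249, adjusted 0.0996) and rho = 0.71 (permutation p = 0.018, adjusted 0.0721), r = 0.48 without the 2 farthest arrays, and r = 0.65 without knockout replicate 5.

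With the S3 marker mean, these 3 Akr1c genes all passed the adjusted threshold by rho, and Akr1c14 alone by r. The permutation p-values here carry the same limit. Akr1c14 had r = 0.83 with it (permutation p = 0.00153, adjusted 0.0214) and rho = 0.83 (permutation p = 0.00236, adjusted 0.0157), and r = 0.78 without the 2 farthest arrays. For Akr1c18 the values were r = 0.72 (permutation p = 0.0132, adjusted 0.0616) and rho = 0.84 (permutation p = 0.00222, adjusted 0.0157), and r = 0.59 without the 2 farthest arrays. Akr1c21 gave r = 0.76 (permutation p = 0.00834, adjusted 0.0577) and rho = 0.83 (permutation p = 0.00281, adjusted 0.0157), and r = 0.64 without the 2 farthest arrays. Without knockout replicate 5, r with the S3 marker mean was 0.79 for Akr1c14, 0.67 for Akr1c18 and 0.73 for Akr1c21. In signal before that step, wild-type replicate 4 had the lowest S3 marker mean, 6.86, and the lowest Akr1c18 and Akr1c21, while knockout replicate 3 had the highest mean, 8.84, and the highest value of all 3 genes. Knockout replicate 2, with the next highest mean, 8.45, had all 3 genes inside the wild-type range, at 5.37 for Akr1c14, 5.32 for Akr1c18 and 6.48 for Akr1c21. Possible sharing of probe signal between Akr1c copies was not tested.

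Akr1e1 was not shown to vary with the S3 marker mean, with r = -0.23 (permutation p = 0.496, adjusted 0.732) and rho = -0.03 (permutation p = 0.93, adjusted 0.964), r = 0.28 without the 2 farthest arrays, knockout replicates 4 and 5, and r = 0.03 without knockout replicate 5. Of the members, its closest was Akr7a5, with rho = 0.75 (permutation p = 0.0101, adjusted 0.0469) and r = 0.55 (permutation p = 0.0797, adjusted 0.248), r = 0.74 without the 2 farthest arrays, and r = 0.57 without knockout replicate 5. These permutation p-values can also be too small, and the adjusted value for rho lay close to the threshold.

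**Figure D3:**
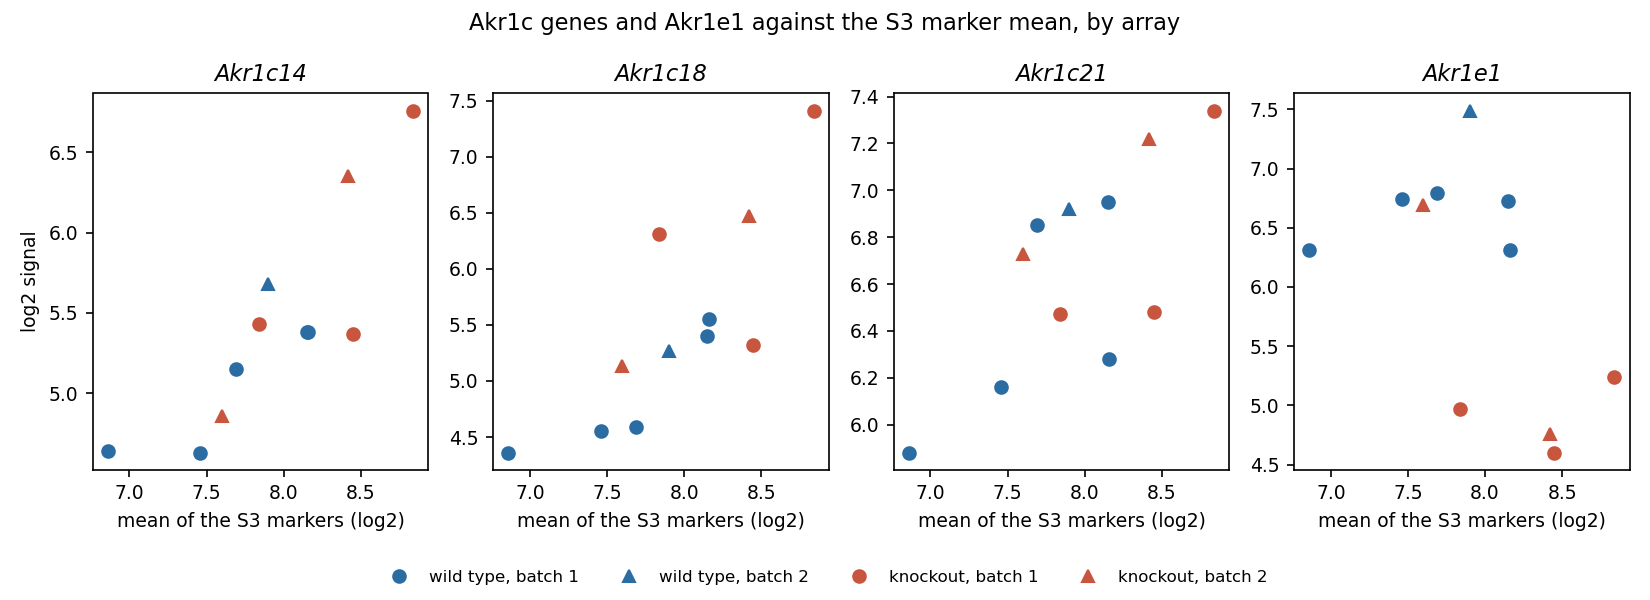
Log2 signal of Akr1c14, Akr1c18, Akr1c21 and Akr1e1 (vertical axes, each with its own range) against the mean log2 signal of 8 S3 markers (horizontal axes) on the 11 arrays, wild type in blue, knockout in red, circles for batch 1 and triangles for batch 2. The 3 Akr1c genes are highest on the knockout array at 8.84, and for Akr1e1 4 knockout arrays lie between 4.60 and 5.24.

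Among 11755 genes above the median signal, those whose residual values, left after genotype and batch, were most like those of Akr1e1 over the 11 arrays were Abtb1 (r = 0.92), Nsun5 (0.91), Hspb9 (0.91), Mc1r (0.88) and Adgrb2 (0.88). Spearman rho was 0.90, 0.80, 0.91, 0.69 and 0.61 in the same order, and r was 0.79 to 0.88 without knockout replicate 5. They were picked for their r, so no p is given. Their genotype differences ran from -0.26 for Hspb9 to 0.14 for Abtb1. Akr1e1 was picked for its genotype difference and these genes were not, so no comparison with it is drawn.

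Genes next to Akr1e1 on the chromosome showed both directions. Of the 10 RefSeq protein-coding genes on each side, 18 of 20 were measured, 9 higher and 9 lower in knockout, with 0 passing limma's adjusted test, a median of 0.04 and a range from -0.66 to 1.21. At an unadjusted p under 0.05 there were 2 higher and 2 lower, against 6.16% of all probe sets. The neighbours include the members Akr1c12, Akr1c14, Akr1c18 and Akr1c21 described above. Akr1c6, Akr1c19 and Akr1c20 are counted both here and in the rest of the superfamily. Idi2, an isopentenyl diphosphate isomerase, was at -0.66 ± 0.20, but its second, dimmer probe set was at 0.12. Pfkp, the platelet-type phosphofructokinase of glycolysis, was at 0.53 ± 0.18, and the next by p was Akr1c18. The genes directly beside Akr1e1 were Akr1c21 at 0.26 and the transcription factor gene Klf6 at 0.31, both with intervals that include 0.

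**Figure D4:**
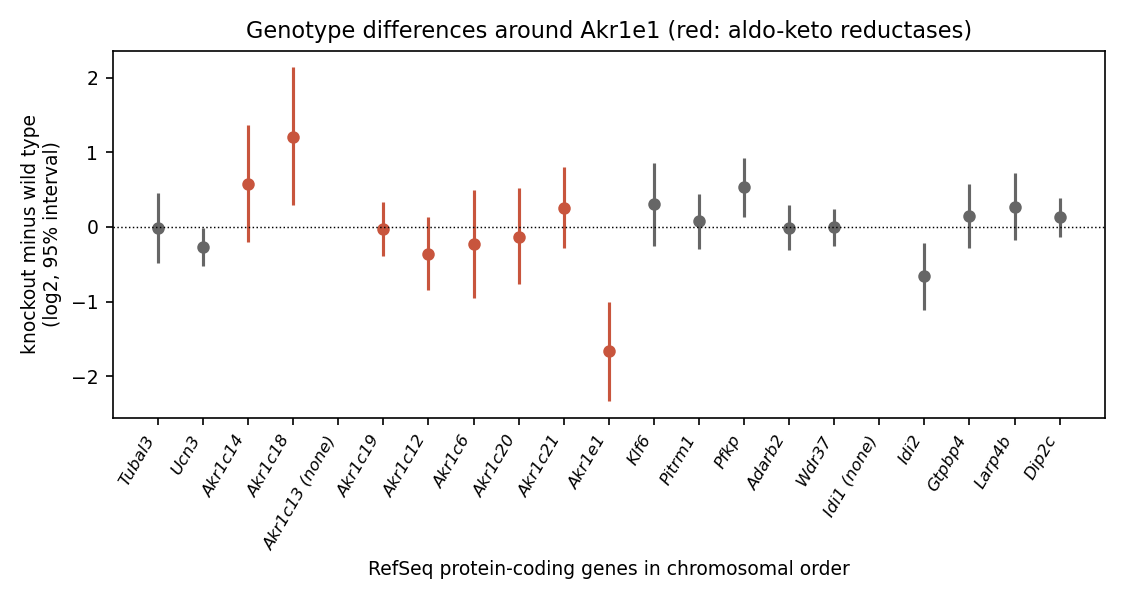
Fitted knockout minus wild-type difference (log2, batch as a term) with 95% interval for Akr1e1 and the protein-coding genes in RefSeq order on either side, aldo-keto reductases in red; "none" marks a gene with no probe set of its own. Akr1e1 lies at -1.67, and its 18 measured neighbours lie between -0.66 and 1.21.

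Of the rest of the superfamily, 10 of 11 listed genes were measured, 3 higher and 7 lower, with a median of -0.06 and 0 with an unadjusted p under 0.05. Without the array labelled knockout replicate 5, 5 were higher and 5 lower. Those with the smallest p were Kcnab3 at -0.36 ± 0.18 and Kcnab2 at -0.11 ± 0.11, which encode potassium channel beta subunits, and Akr1cl at 0.14 ± 0.10. The second probe set of Akr1cl, dimmer, went the other way at -0.32. Akr1a1, the aldehyde reductase, is named for its level, percentile 99.1 of gene means, which was seen first. Its mean was 8.62 in wild type and 8.72 in knockout, and its fitted difference was -0.02 ± 0.22.

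Enzymes that feed or parallel the family gave 0 genes past limma's adjusted test in any list. Over all 22180 genes, 53.4% were higher in knockout, with a median difference of 0.015, the background for the counts of each list. Of all 41345 probe sets, 6.16% had an unadjusted p under 0.05. Of the 11 measured genes of glycogen turnover, from which the Akr1e1 substrate derives, 7 were higher and 4 lower (median 0.03), with 1 at an unadjusted p under 0.05. Pygb, the brain-type glycogen phosphorylase, was that gene, at 0.39 ± 0.16, with Ganab, a glucosidase subunit of the endoplasmic reticulum, at 0.29 ± 0.17 and Gys2, the liver-type glycogen synthase, at -0.28 ± 0.19. In the sorbitol and fructose list 3 of 6 were higher and 0 had an unadjusted p under 0.05, with the triokinase gene Tkfc at 0.21, hexokinase Hk2 at -0.22 and ketohexokinase Khk at 0.22. Suppliers of NADPH, the cofactor of the family, were higher in 8 of 10 cases (median 0.19), with 0 at an unadjusted p under 0.05, and those with the smallest p were transaldolase Taldo1 (0.47 ± 0.23), Pgd of the pentose phosphate pathway (0.42 ± 0.22) and the NAD kinase Nadk (0.21 ± 0.14).

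Short-chain carbonyl reductases were higher in 8 of 12 cases (median 0.05). Those with the smallest p were Hsdl2 at 0.42 ± 0.16, Dhrs9 at -0.26 ± 0.11 and Dhrs1 at 0.29 ± 0.21, and the first 2 had an unadjusted p under 0.05. Aldehyde dehydrogenases, which oxidise the aldehydes that aldo-keto reductases reduce, were higher in 12 of 18 cases (median 0.11), and 0 had an unadjusted p under 0.05. Aldh1a1, a retinal dehydrogenase, was at 0.28, the folate enzyme Aldh1l1 at 0.26 and Aldh3b1 at 0.23.

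Steroid dehydrogenases and reductases outside the family were higher in 11 of 17 cases (median 0.05), with 1 at an unadjusted p under 0.05. That gene, Hsd11b1, which regenerates active glucocorticoid, read 5.05, 5.13, 5.01, 4.14, 5.27 and 4.65 on the wild-type arrays and 5.58, 5.72, 6.66, 6.73 and 5.70 on the knockout arrays. Its groups did not overlap, and its difference was 1.20 ± 0.29 (limma adjusted p = 0.543), 1.07 within batch 1 and 1.56 within batch 2. Without knockout replicate 5 the difference was 1.28 ± 0.30 (limma adjusted p = 0.431). Hsd3b7 was at -0.19 and Hsd17b12 at 0.31. Osmotic stress genes were higher in 6 of 7 cases (median 0.19), with the amino acid carrier Slc38a2 at 0.88 ± 0.23, the taurine carrier Slc6a6 at 0.61 ± 0.19 and the heat shock gene Hspa1b at 0.76 ± 0.39, and the first 2 had an unadjusted p under 0.05. Without knockout replicate 5, where 53.1% of all genes were higher, the genes higher were 6 of 11 for glycogen turnover, 3 of 6 for sorbitol and fructose, 8 of 10 for NADPH supply, 8 of 12 for the short-chain enzymes, 12 of 18 for the aldehyde dehydrogenases, 10 of 17 for the steroid enzymes and 6 of 7 for osmotic stress, with 0 past limma's adjusted test in each. For the neighbours of Akr1e1 it was 10 of 18, also with 0. Over all 22180 genes, 6 passed limma's adjusted test in that fit.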

How the data were processed

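The authors deposited log2 signals made with Partek 6.6 and RMA, per the submitters' processing notes. RMA corrects background, draws arrays to a like distribution and summarises each probe set, so changes shared by most genes can shrink. Per the labels' protocols, RNA was extracted with a PicoPure kit and labelled by a WT Pico kit. The sources used here name no batch correction, filter or genome build.

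Probe sets were named from the platform annotation, where 23521 carried 1 symbol, 1814 several and 16010 none. The probe set with the highest mean over all arrays was kept for each gene. Of 192 symbols in the lists 169 matched. All probe sets were fitted in R 4.3.3 by limma 3.58.1 (terms for genotype and batch, moderated two-sided test, all probe sets kept, Benjamini-Hochberg over 41345 probe sets, threshold 0.05, 8 residual degrees of freedom). The fit was also run on simulated arrays with independent noise and no batch difference, so that run does not show how it handles these batches. Residuals of the fit to the real arrays gave the correlations. Promoters were searched in Python 3.11.15 and aligned with Biopython 1.88, and plots drawn with matplotlib 3.10.9. The number of arrays limits the precision.

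The members and lists were chosen with earlier results of these data known. Named are all members, Umod, up to 3 genes of smallest p from each list and of the neighbours, and the 5 genes most like Akr1e1. Akr1a1, for its level, and Klf6, as a direct neighbour, were named outside this rule after their values were seen. Other settings were batch left out, as a random block or batch 1 alone, a block for the replicate number, a filter on dim probe sets, quantile normalization, median centring, a trended and robust prior, array weights, all probe sets of a gene averaged, marker covariates, a looser threshold and each array left out.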

Additional observations from a re-analysis of the deposited data

Results flagged for a closer look

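Single arrays stood apart from the rest of their group in 6 of 74 group values examined, where chance marks about 1 in 20, and 0 of these were among the members or Umod. The Akr1cl signal on knockout replicate 2 was 4.60, with the other knockout arrays between 4.31 and 4.32. Hk2 on wild-type replicate 4 was 4.20, with the next array at 3.76. Pygb was lowest on wild-type replicate 5, at 3.28 against 3.79 or more on the others. Gys2 was lowest on knockout replicate 1, at 4.47 against 5.18 or more. Aldh1l1 was highest on knockout replicate 4, at 7.27 against 6.77 or less. The mean of the S1 and S2 proximal tubule markers was lowest on wild-type replicate 5, at 6.63 against 7.70 or more on the other wild-type arrays.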

How the results depend on the processing

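The Akr1e1 difference stayed negative and within the spread between arrays under 12 other settings, from -1.82 with the replicate number as a block to -1.37 with the thick ascending limb covariate. Of 205 recomputed values for the members, their count of calls and their median, 204 kept their direction and their side of the threshold or moved by less than that spread. No tested member was near the threshold, so for these genes an unchanged sign was enough to count as kept. The exception was Akr1c21, which turned to -0.08 with the S3 marker mean as a covariate, a setting chosen after seeing the data. Counted as kept under that covariate were Akr1c14, from 0.58 to 0.02, Akr1b8, from -0.18 to -0.01, and Akr1c18, from 1.21 to 0.63. Akr1c12, at -0.46, and Akr7a5, at -0.26, became more negative. Of the 6 members tested (Akr1e1 was given no test), 0 passed limma's adjusted test under each setting and each array left out, with 4 tested where dim probe sets were left out. Without knockout replicate 5, 6 of all 22180 genes passed. With each array left out in turn, the difference ran from 0.22 to 0.82 for Akr1c14, from 0.80 to 1.51 for Akr1c18, from 0.05 to 0.35 for Akr1c21, from -0.28 to -0.16 for Akr7a5, from -0.50 to -0.20 for Akr1c12 and from -0.23 to -0.09 for Akr1b8. The replicate block changed no call, with Akr1c18 at 1.50 and Akr1c12 at -0.66. Deviations of same-numbered arrays from their genotype means correlated at -0.181 to 0.012, and 0 of 5 knockout arrays was closest to its own number. No pairing was seen there, but batch was not removed, so these values do not settle whether arrays were paired. With dim probe sets left out, Akr1c12 and Akr1b8 had no value. Their signal near or below the array median limits what these arrays can show for them.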
